A study of Mus musculus with 16 samples.

Results

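The nuclear genes of oxidative phosphorylation were taken as the annotated mouse genes named as subunits of the 5 respiratory complexes (the Nduf a, b, c, s and v series, Sdha to Sdhd, Uqcr, Cox4 to Cox8 and Atp5) that had at least 1 read in the long-read libraries of mouse cortex and striatum. The name rule gave 83 genes of 24035 annotated genes with a read. By name, 37 were counted under complex I, 4 under complex II, 8 under complex III, 17 under complex IV and 17 under complex V. All 83 had reads assigned to their isoforms, 366732 in all. Of the 83 genes 12 overlap another gene on the same strand, among them Cox4i1 (with Gm20388), so that reads of some could be split between genes. Some of the overlapped genes are small RNA genes, such as Mir6900 in Ndufa10. The 8 pseudogenes named after these subunits with the ending -ps took 12 reads, and pseudogenes under other names were not counted. The libraries came from male mice at 3 months of age, either R6/2, which carry a transgene of the first exon of human HTT with an expanded CAG repeat on a mixed B6CBA background, or age-matched non-transgenic mice (NT). There were 4 samples each of cortex NT, cortex R6/2, striatum NT and striatum R6/2. R6/2 is a fragment model of Huntington's disease (HD) in which the transgene runs from the human HTT promoter in all tissues, and the transgene was not analysed here because the reads were annotated to mouse genes. Whether the same mice gave both regions is not stated in the sources used here.

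Oxidative phosphorylation takes place in the inner mitochondrial membrane. Complex I oxidizes NADH and complex II oxidizes succinate, complex III passes the electrons to cytochrome c, complex IV hands them to oxygen, and complex V, the ATP synthase, uses the proton gradient built by complexes I, III and IV to make ATP. Most subunits are encoded in the nucleus and imported, and the rest are encoded in mitochondrial DNA. Medium spiny neurons of the striatum have a high energy demand, and complex II inhibitors such as 3-nitropropionic acid cause striatal lesions in rodents, which is why these genes are often looked at in HD models.

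Each sample gave 252885 to 1496196 reads, the sets of counts of a sample summed. The nuclear OXPHOS genes took 3.28% to 3.83% of gene reads in cortex NT, 3.78% to 4.36% in cortex R6/2, 2.82% to 6.70% in striatum NT and 3.14% to 5.72% in striatum R6/2. In the cortex NT 1, at 3.83%, and R6/2 3, at 3.78%, overlapped and the other samples were apart, whereas the striatal ranges overlapped widely. The wide striatal ranges followed the number of count sets per sample. Striatum NT 1 and 2 and R6/2 2 and 3 have 2 deposited sets of counts each, which were summed, and whether these are separate libraries or runs of the same library is not stated in the sources used here. The OXPHOS genes took 2.82% to 3.25% of their reads. The striatal samples with 1 set gave 4.79% to 6.70%. Libraries with 2 sets also held longer isoforms, with a mean isoform length of 2142 to 2225 nt against 1620 to 1886 nt with 1 set, and 1851 to 2101 nt in the cortex. OXPHOS mRNAs are short. Their median isoform length was 852 nt against 2065 nt over all genes tested in the cortex, and 44 of the 75 tested were under 1000 nt, as were 9.72% of all genes tested. The number of sets was therefore a term in every main fit that held striatal samples. Summed markers of striatal projection neurons were 10298 to 14170 CPM (reads scaled to library size, defined further on) in striatum NT and 1914 to 3335 in striatum R6/2, so the striatal label was borne out by its markers, and 6 of the 8 markers fell in the R6/2 striatum. In the cortex the same sum was 391 to 476 CPM in NT and 95.5 to 126 CPM in R6/2, and 2 of the 3 markers tested there fell. In bulk tissue fewer cells of a type and less RNA per cell cannot be told apart. Summed oligodendrocyte markers were 3676 to 7427 CPM in the cortex and 13287 to 31244 CPM in the striatum, where samples with 2 sets (18484 and above) lay over those with 1 set (16189 and below). Summed markers of cortical excitatory neurons were 203 to 457 CPM in the cortex and 71.3 to 356 CPM in the striatum, those of astrocytes 869 to 1225 CPM in cortex NT, 628 to 752 CPM in cortex R6/2 and 416 to 1111 CPM in the striatum, and those of microglia 178 to 375 and 258 to 382 CPM. Summed choroid plexus markers stood at 9626 CPM in striatum NT 3, at 997 to 1642 CPM in cortex NT 4, R6/2 2 and R6/2 3, and at 335 CPM or below in the other samples. The part of these markers in the results was not tested, and the gene calls, the medians over the OXPHOS genes, the ratio of their sums and the isoform usage tests were also computed without each sample in turn.

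**Figure D1:**
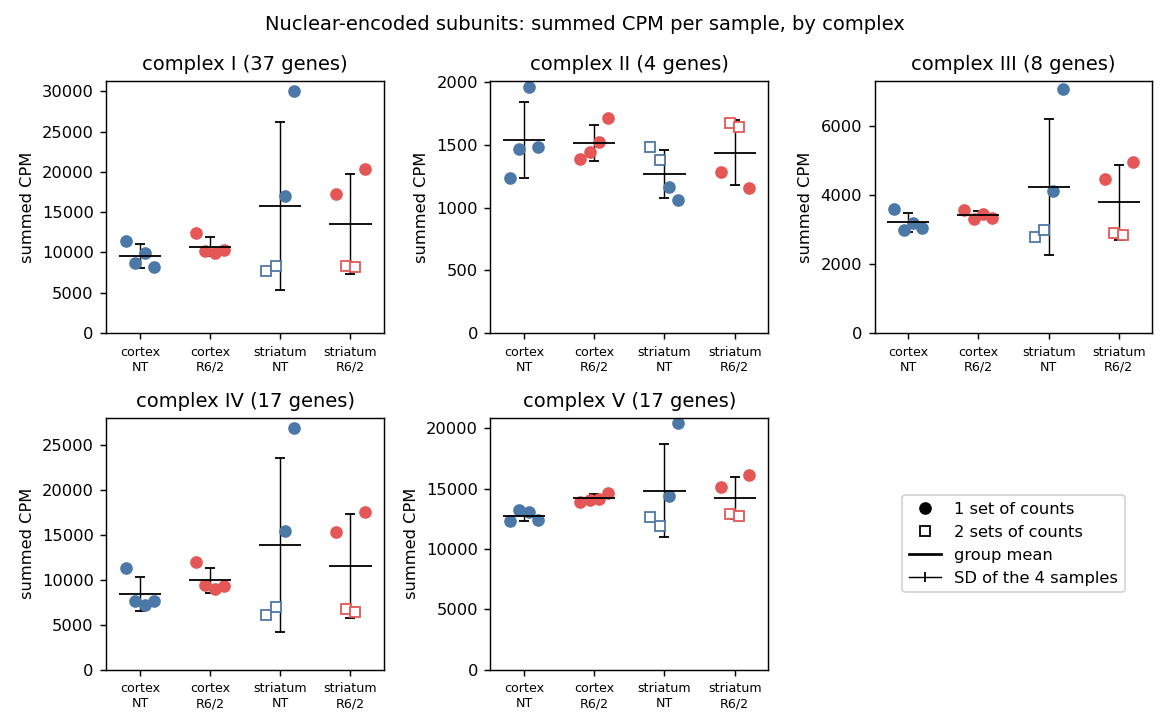
Summed CPM of the nuclear-encoded subunits of each complex (y axis, linear) in each of the 16 samples (points), by region and genotype (x axis), with group mean and SD. In complexes I, III, IV and V the striatal samples with 1 set of counts (filled circles) lie above those with 2 sets (open squares), and the 4 cortical R6/2 samples of complex V lie above the 4 NT samples.

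Levels are given as CPM, the reads of a gene scaled to the TMM-adjusted library size. The reads are not divided by length. In the cortex the 83 genes summed to 39925, 34023, 35345 and 32667 CPM in NT samples 1 to 4 and to 43300, 38494, 38158 and 39378 CPM in R6/2 samples 1 to 4. NT 1 alone among the NT samples lay within the R6/2 range. The ratio of means, R6/2 to NT, was 1.12 for all 83 genes, 1.13 for complex I, 0.985 for complex II, 1.06 for complex III and 1.18 for complex IV. For complex V, NT samples held 12350 to 13264 CPM (mean 12760 ± 467, SD) and R6/2 samples 13907 to 14683 CPM (mean 14213 ± 334), and the groups did not overlap. For complex II the R6/2 range, 1383 to 1712 CPM, lay inside the NT range, 1235 to 1962 CPM. In the striatum the ratio for all 83 genes was 0.891, but it was 0.826 among samples with 1 set and 1.03 among samples with 2 sets. These sums are descriptions and were not tested.

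To ask which subunit genes differed between genotypes, R6/2 was compared with NT gene by gene over all genes tested. In the cortex 2 of the 75 OXPHOS genes tested rose and none fell (edgeR quasi-likelihood test, adjusted p under 0.05). The genes that rose were Ndufa3, an accessory subunit of complex I, and Uqcrb, a subunit of complex III that sits at the ubiquinone-binding side. Over all 6121 genes tested, 0.457% rose and 2.81% fell. A further 9 OXPHOS genes had an unadjusted p under 0.05, all in the same direction, for 11 in all. For this and the later gene expression counts at an unadjusted p, the share over all genes is not given here. The fold changes were positive for 62 of the 75 genes and for 3168 of all 6121. The median was 0.23 on the log2 scale against 0.01 over all genes. The standard error of a single gene was 0.20 at the median.

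Ndufa3 (ENSMUSG00000035674, mm10 chr7:3617373-3620327, plus strand) was at 118, 108, 96.6 and 131 CPM in cortex NT 1 to 4 and at 197, 204, 185 and 243 CPM in cortex R6/2 1 to 4. Every R6/2 sample lay above every NT sample. The log2 fold change was 0.85 ± 0.18 (SE, n = 4 and 4, edgeR adjusted p = 0.0097). Uqcrb (ENSMUSG00000021520, chr13:66900617-66905378, minus strand) was at 175, 98.9, 132 and 131 CPM in NT 1 to 4 and at 292, 238, 199 and 224 CPM in R6/2 1 to 4. Again the groups did not overlap, and NT 1 was the NT sample nearest to the R6/2 values. Its log2 fold change was 0.85 ± 0.20 (SE, edgeR adjusted p = 0.020). Uqcrb was not past the threshold without NT 2, NT 4, R6/2 1 or R6/2 2, with edgeR adjusted p between 0.064 and 0.11, and Ndufa3 held without any single sample. The gene Tfpt overlaps Ndufa3 and Gm10767 overlaps Uqcrb on the opposite strand. With all 16 samples in the fit neither gene passed, at adjusted p = 0.053 for Ndufa3 and 0.079 for Uqcrb.

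The RefSeq window around the start of Ndufa3 is shown because it is the member with the smallest p that has an entry in the promoter table, which holds none for Uqcrb. Beside it stand Atp5k and Atp5g2, chosen after the search because their windows hold a match to NRF1, a transcription factor known for its sites in promoters of respiratory genes. Each runs from 100 bases before to 30 after the annotated start (GRCm38.p6), 5′ to 3′ on the gene's strand, with matches to the searched motifs in capitals.
Ndufa3, chr7:3617273-3617402, plus strand: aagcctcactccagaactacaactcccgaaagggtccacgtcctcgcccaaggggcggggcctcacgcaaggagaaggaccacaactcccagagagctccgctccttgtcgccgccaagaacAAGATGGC
Atp5k, chr5:108434370-108434499, minus strand: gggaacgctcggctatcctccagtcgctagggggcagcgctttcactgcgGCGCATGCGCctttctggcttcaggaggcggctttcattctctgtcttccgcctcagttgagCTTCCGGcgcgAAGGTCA
Atp5g2, chr15:102671018-102671147, minus strand: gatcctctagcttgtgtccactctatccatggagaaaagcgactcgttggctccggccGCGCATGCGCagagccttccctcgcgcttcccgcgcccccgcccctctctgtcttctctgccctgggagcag

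The motifs, searched on both strands in windows from 250 bases before to 50 after a start, were GCGCATGC for NRF1, CCGGAAG for GABPA, AAGATGGC for YY1 and AAGGTCA for ESRRA, factors known to act on mitochondrial gene promoters. The NRF1 letters nearly read the same on both strands, so that GCGCATGCGC holds a pair of overlapping matches. Windows were found for 66 of the 83 genes. The NRF1 letters were in windows of 10 genes (15.2%, against 3.05% of the 27025 genes in the table), the GABPA letters in 16 (24.2% against 9.93%), the YY1 letters in 9 (13.6% against 3.19%) and the ESRRA letters in 8 (12.1% against 5.38%). At least 1 of the 4 was found for 33 genes and none for the other 33. Ndufa3 held the YY1 letters alone, 22 bases after its start, and Atp5k held all but those of YY1. A match is a description of letters, not a measured site, and the windows of the members were richer in G and C (median 57.3%) than all windows (52.7%).

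**Figure D2:**
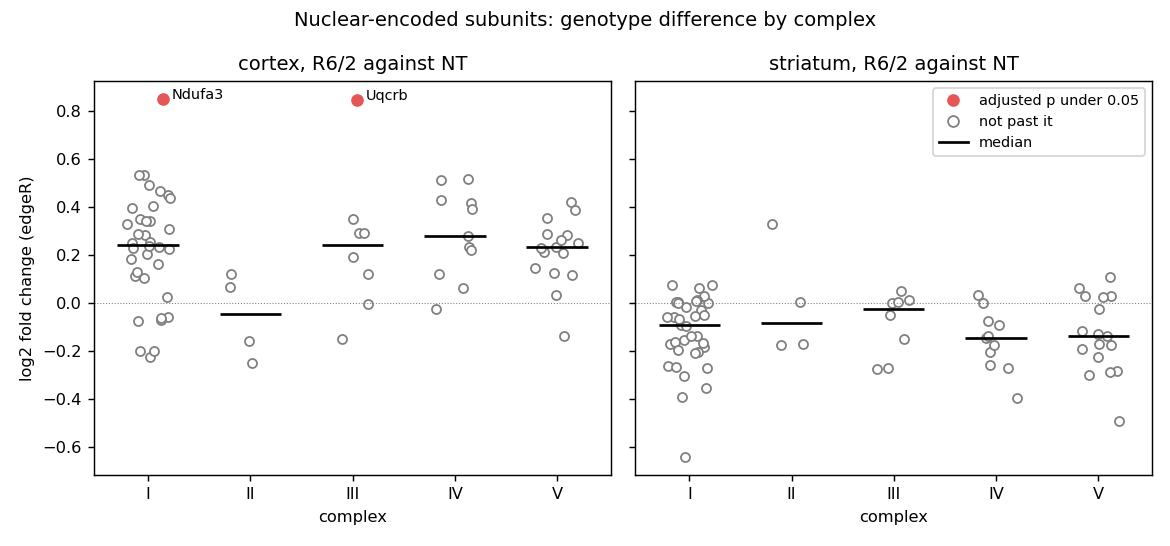
Log2 fold change of each nuclear-encoded subunit gene (points), R6/2 against NT, by complex, in the cortex (left) and striatum (right), with the median of each complex as a line. Ndufa3 and Uqcrb in the cortex were the genes past an adjusted p of 0.05, most cortical points lie above 0, and in the striatum 54 of 76 lie below 0.

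By complex, the cortical fold changes were positive for 29 of 36 tested genes of complex I (median 0.24 on the log2 scale), 2 of 4 of complex II (median -0.05), 6 of 8 of complex III (median 0.24), 10 of 11 of complex IV (median 0.28) and 15 of 16 of complex V (median 0.23). The tested genes of complexes I, II, III, IV and V had median isoform lengths of 844, 1766, 955, 672 and 961 nt. The part of length in the values by complex was not tested. The lowest fold change was that of Sdhb, the iron-sulfur subunit of complex II, at -0.25 ± 0.20 (SE, edgeR adjusted p = 0.58). Ndufa4, counted under complex I by its name but now known to be part of complex IV, was at 685, 494, 636 and 484 CPM in NT 1 to 4 and at 932, 726, 749 and 870.2 CPM in R6/2 1 to 4. Its groups did not overlap, but it did not pass the test (0.53 ± 0.19, edgeR adjusted p = 0.16). Ndufb11, an accessory subunit of the complex I membrane arm, was at 137 to 206 CPM in NT and 197 to 299.9 CPM in R6/2, and its groups overlapped (0.53 ± 0.19, edgeR adjusted p = 0.16). Cox6c, a small nuclear subunit of complex IV, was at 564 to 739 CPM in NT and 801 to 1127 CPM in R6/2 (0.52 ± 0.19, edgeR adjusted p = 0.16). Without cortex NT 1, the NT sample with the shortest mean isoform length, 6 OXPHOS genes passed and the median over the 75 was 0.35. The 6 genes were Ndufa3, Uqcrb, Ndufa4, Ndufb11, Ndufa12 and Cox6b1 (chosen after their values were seen). Over all 6421 genes tested in that fit, 82 rose and 223 fell.

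**Figure D3:**
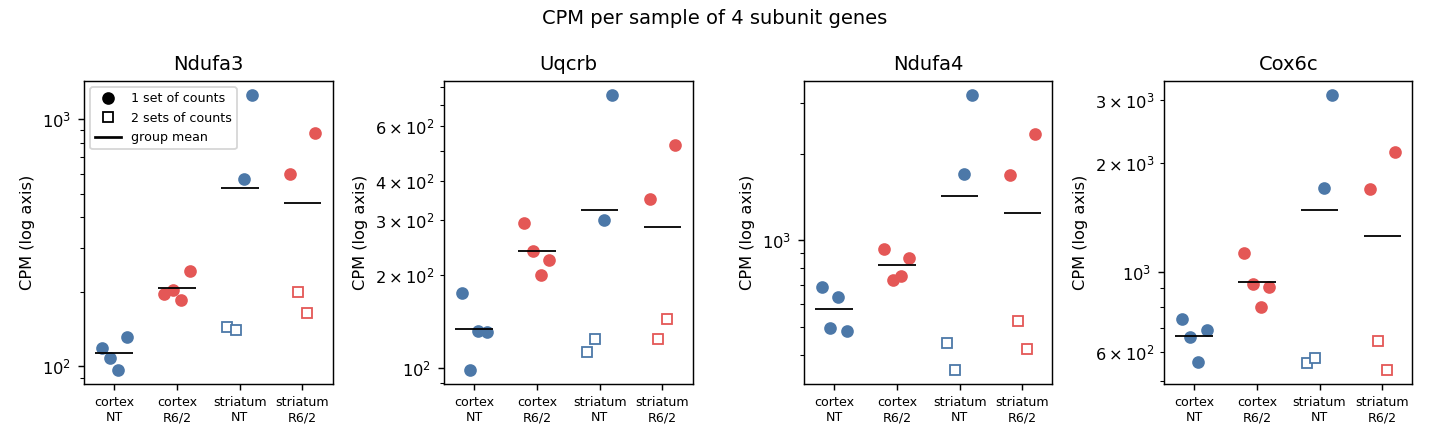
CPM (log axis) of Ndufa3, Uqcrb, Ndufa4 and Cox6c in each of the 16 samples, by region and genotype, with group means. All 4 cortical R6/2 samples lie above all 4 cortical NT samples for each gene, and striatal samples with 1 set of counts lie above those with 2 sets in both genotypes.

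The cortical fold changes moved with isoform length, here that of the models reads were assigned to and not of the reads themselves. Among all genes with a mean isoform length under 750 nt, 266 genes, the median log2 fold change was 0.33, and the 32 OXPHOS genes of that length were at 0.29. From 750 to 1000 nt the medians were 0.20 for all genes and 0.22 for 12 OXPHOS genes, and from 1000 to 1500 nt they were 0.06 and 0.12 (13 genes). Over 1500 nt all genes lay at -0.02 and -0.04, and the OXPHOS genes at 0.08 (14 genes, up to 2500 nt) and 0.34 (4 longer genes). Short genes as a whole thus had a positive median in the cortex, and the OXPHOS genes under 1000 nt lay close to that of all genes of their length. Both genes that rose were under 750 nt, with mean lengths of 494 nt for Ndufa3 and 540 nt for Uqcrb, and of all 266 genes under 750 nt, 4 rose and 4 fell. With the mean isoform length of each library as a term, the median over the 75 genes was 0.16 and Ndufa3 and Uqcrb still passed the threshold. Whether the length of the molecules captured set the cortical shift was not tested.

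**Figure D4:**
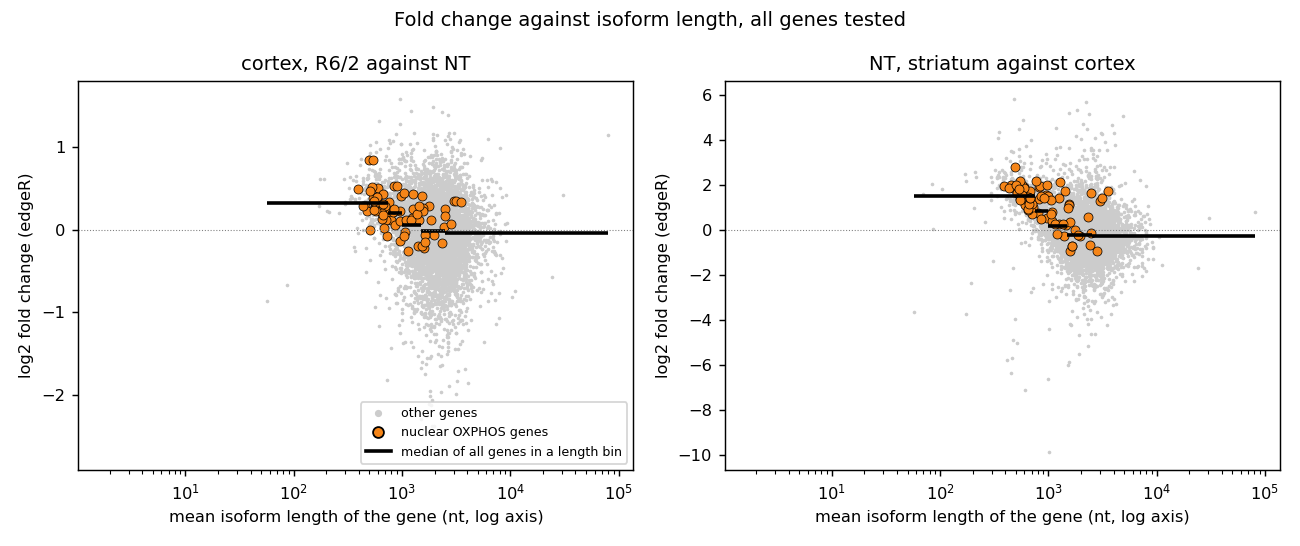
Log2 fold change (y axis) against mean isoform length (x axis, log scale) of all genes tested (grey) and the nuclear OXPHOS genes (orange), for cortex R6/2 against NT (left) and for NT striatum against NT cortex (right), with the median of all genes in each length bin as a line. The median of all genes under 750 nt lies above 0 in both panels, and the OXPHOS genes under 750 nt lie around the line, at medians of 0.29 against 0.33 (left) and at 1.61 (right).

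In the striatum none of the 76 OXPHOS genes tested passed the threshold (edgeR quasi-likelihood test, with the number of sets as a term). Over all 7658 genes 0.496% rose and 3.84% fell. At an unadjusted p under 0.05 there was 1 OXPHOS gene, and DESeq2 called none. The median log2 fold change was -0.13, with 22 positive and 54 negative values, beside 3811 and 3847 over all genes. The sign rested on striatum NT 4, since the median was 0.04 without it, with 51 positive values. It was -0.27 among the 4 samples with 1 set and 0.02 among the 4 with 2 sets. By complex the medians were -0.09 for I, -0.08 for II, -0.03 for III, -0.15 for IV and -0.14 for V.

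The striatal genes of smallest p did not pass the test. Ndufb4, an accessory subunit of complex I, was at 93.3, 132, 315 and 706 CPM in NT 1 to 4 and at 251, 99.4, 75.2 and 297 CPM in R6/2 1 to 4. In samples with 1 set both R6/2 values lay below both NT values, and in samples with 2 sets R6/2 2 lay between the NT values. The log2 fold change was -0.64 ± 0.24 (SE, edgeR adjusted p = 0.19). Sdha, the catalytic flavoprotein of complex II, was at 1086, 891, 617 and 416 CPM in NT 1 to 4 and at 705, 1278, 1260 and 597 CPM in R6/2 1 to 4 (0.33 ± 0.17, edgeR adjusted p = 0.35). Ndufs3, a core subunit of the complex I peripheral arm, was at -0.35 ± 0.17 (edgeR adjusted p = 0.30). Ndufb10, in the membrane arm, was at -0.31 ± 0.17 (edgeR adjusted p = 0.39), and Atp5sl, counted under complex V by its name and listed in GENCODE M21 as Dmac2, at -0.49 ± 0.27 with 357 reads over the 16 samples (edgeR adjusted p = 0.39). Ndufa3 and Uqcrb, which rose in the cortex, were at 0.01 ± 0.24 and -0.05 ± 0.26 in the striatum (edgeR adjusted p = 1.0 and 0.97).

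The genotype difference was then compared between regions in a fit over all 16 samples. None of the 75 OXPHOS genes differed past the threshold, and 0.0406% of all 7390 genes did. At an unadjusted p under 0.05 there were 5, and DESeq2 called none. The interaction, striatal minus cortical log2 fold change, was negative for 66 of 75 genes (3746 of all 7390) with a median of -0.30. It was -0.83 ± 0.32 for Ndufa3 and -0.87 ± 0.34 for Uqcrb (SE, edgeR adjusted p = 0.79 and 0.80). The rise of these genes in the cortex was thus not shown to differ from the striatum. All genes under 750 nt had a median interaction of -0.38, beside -0.39 for the OXPHOS genes of that length.

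Among the 2 most read genes counted under each complex, no genotype difference passed the threshold in either region. Atp5b and Atp5a1, which encode the catalytic beta and the alpha subunit of the ATP synthase, had 38180 and 37248 reads. Atp5b was at 3573, 4294, 2786 and 4058 CPM in cortex NT 1 to 4, 3809, 4664, 4761 and 4577 CPM in cortex R6/2 1 to 4, 4199, 3621, 3592 and 3921 CPM in striatum NT 1 to 4 and 3915, 4393, 4432 and 3947 CPM in striatum R6/2 1 to 4. Its striatal values did not split by the number of sets, and its mean isoform length was 1769 nt. Atp5a1, at 2431 nt, did split, with 4053 to 4522 CPM in striatal samples with 2 sets and 2428 to 3023 CPM in those with 1 set. Cox4i1, a regulatory subunit of complex IV with 28316 reads, was at 4445, 2573, 2583 and 2589 CPM in cortex NT 1 to 4 and at 3982, 3155, 2884 and 3074 CPM in cortex R6/2 1 to 4, so that NT 1 lay above all R6/2 samples and the other NT samples below them. Cox8a, another small subunit of complex IV, gave log2 fold changes of 0.39 ± 0.21 in the cortex and -0.27 ± 0.20 in the striatum. Ndufb9 of complex I gave 0.20 ± 0.21 and -0.21 ± 0.18. The core proteins of complex III, Uqcrc1 and Uqcrc2, gave -0.15 ± 0.18 and 0.12 ± 0.18 in the cortex and 0.05 ± 0.16 and 0.00 ± 0.15 in the striatum (SE).

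Several complex IV subunits exist as tissue variants. The forms known from heart and skeletal muscle, testis or lung were near absent from these libraries. Cox4i2, the form known from lung, had 39 reads over all 16 samples beside 28316 of Cox4i1, at like mean lengths of 724 and 709 nt. Cox6a2, the heart and muscle form, had 58 reads against 5538 of Cox6a1. Cox6b2, known from testis, had 39 against 6086 of Cox6b1. Cox7a1, of heart and muscle, had 45 reads against 4983 of Cox7a2 and 5391 of Cox7a2l, a relative known for its part in respiratory supercomplexes. Cox8b had 13 against 13183 of Cox8a. Ndufa4l2, a relative of Ndufa4 known to be induced by hypoxia, had 28 against 7920. These low forms reached at most 25.4 CPM in any sample and, with Atp5s and Cox7b2, were the 8 genes that had too few reads to be tested in the cortex. Cox6a1, Cox6b1 and Cox7a2 gave cortical log2 fold changes of 0.28 ± 0.22, 0.51 ± 0.22 and 0.43 ± 0.19, and Cox7a2l gave -0.02 ± 0.18 (edgeR adjusted p = 0.55, 0.23, 0.26 and 0.97). Ring subunit c of the ATP synthase is made from 3 genes that encode the same mature protein with different import sequences. Atp5g1 had 3957 reads, Atp5g3 2139 and Atp5g2 678, and in cortex NT they stood at 353 ± 109, 218 ± 23.3 and 46.0 ± 21.7 CPM (SD, n = 4). Their cortical log2 fold changes were 0.36 ± 0.24, 0.21 ± 0.18 and 0.21 ± 0.27, and none passed.

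NT striatum was set against NT cortex to describe the regions. Of 75 OXPHOS genes, 55 were higher and 5 lower in the striatum (edgeR quasi-likelihood test with the number of sets as a term), with a median log2 fold change of 1.34 against -0.11 over all genes. Of all 7390 genes 15.8% were higher and 17.6% lower. The result belonged to the samples with 1 set. Cortical samples all have 1 set, so that this fit sets them against the level of striatum NT at 1 set. That level was estimated from the striatal samples of both genotypes through the term for the number of sets. With striatal samples of 1 set only, 55 were again higher and 5 lower (14.9% and 14.5% of all genes). With striatal samples of 2 sets only, 0 of 75 were higher and 2 lower, with a median of -0.23, while 12.2% of all genes were higher and 7.42% lower. In that comparison 2 OXPHOS genes were higher and 9 lower at an unadjusted p under 0.05. A regional difference of the OXPHOS genes and a difference between kinds of library cannot be told apart here.

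The strongest region values show the split. Ndufa3 was at 96.6 to 131 CPM in cortex NT, at 145 and 140.2 CPM in striatum NT 1 and 2 (2 sets) and at 573 and 1255 CPM in striatum NT 3 and 4 (1 set). Its log2 fold change was 2.82 ± 0.25 (SE, edgeR adjusted p = 3.8e-08), and 0.35 with samples of 2 sets (edgeR adjusted p = 0.24). Ndufa5, Uqcr11, Ndufa4, Cox6c, Ndufc1, Cox7c and Ndufa6, all small subunits, were next in p, with log2 fold changes of 1.76 to 2.19. Among the genes that were lower, named after their values were seen, were Ndufv1, Sdha, Uqcrc1 and Atp5a1, which encode core or catalytic subunits. Their mean isoform lengths were 1638 to 2831 nt. Such subunits did not all go lower. The core subunits Ndufs3 and Ndufs8 were higher, at 0.71 ± 0.21 and 1.13 ± 0.22 (SE, edgeR adjusted p = 0.011 and 0.00033). The catalytic Atp5b was at 0.00 ± 0.18 (edgeR adjusted p = 0.99). Sdha was at 496 to 1444 CPM in cortex NT and at 617 and 416 CPM in striatum NT 3 and 4 (-0.94 ± 0.26, edgeR adjusted p = 0.0080). In length bins the OXPHOS genes under 750 nt had a median of 1.61 and all 32 were higher, as were 274 of all 343 genes of that length, and those of 750 to 1000 nt 1.51 beside 0.85. Of the 13 OXPHOS genes of 1000 to 1500 nt the median was 0.38 beside 0.17, and of the 14 of 1500 to 2500 nt it was -0.06 beside -0.25. The 4 longer OXPHOS genes, Ndufb2, Ndufa13, Atp5g1 and Sdha, departed from the trend of all genes, at 1.36 beside -0.27. Of these 3 were higher and Sdha was lower. Their length is that of isoform models and not of reads, and its part in the departure was not tested. Across the 75 genes the rank correlation of fold change with length was -0.62 in this comparison and -0.41 in the cortical genotype comparison. The genes share libraries, so no p is given. With mean isoform length as a term, 36 were higher and 3 lower (600 and 661 of all 7390 genes), with a median of 0.66.

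Other genes of the pathway were read from lists. In the R6/2 cortex none of 9 tested mitochondrially encoded subunits, 37 assembly factors, 18 enzymes of the tricarboxylic acid (TCA) cycle, 5 nuclear subunits outside the name rule or 3 regulators of mitochondrial biogenesis passed the threshold. The same held in the striatum for 12, 39, 18, 5 and 9 genes. The median log2 fold changes were 0.18 and -0.12 for the mitochondrially encoded subunits, 0.10 and -0.05 for the assembly factors and 0.04 and -0.01 for the TCA cycle, for cortex and striatum, and 0.37 and -0.22 for the subunits outside the rule and 0.51 and -0.08 for the regulators (3 and 9 genes). In NT striatum against NT cortex, 10 of 11 mitochondrially encoded subunits were higher and none lower. There a regional difference and a difference between kinds of library cannot be told apart. Mitochondrially encoded genes took 1.42% to 3.28% of gene reads in striatal samples with 1 set, 0.408% to 0.852% with 2 sets and 0.332% to 0.575% in the cortex. In the same comparison 11 assembly factors were higher and 3 lower of 39, 2 regulators higher of 6, 4 outside subunits higher of 5, 1 TCA cycle enzyme higher and 4 lower of 18, 10 of 16 glycolytic genes lower, and 1 carrier or creatine kinase higher and 2 lower of 11, where 15.8% of all genes were higher and 17.6% lower. Ppargc1a, the coactivator of mitochondrial biogenesis, had 133 reads over all samples and too few for a test in the cortex, and in the striatum it was at -0.08 ± 0.33 (edgeR adjusted p = 1.0).

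Creatine kinases and a glycolytic enzyme fell in both regions. Of 11 carriers and creatine kinases, Ckb and Ckmt1 fell and none rose, where 2.81% of all genes fell in the cortex and 3.84% in the striatum. Ckb, the brain creatine kinase, had 8374 to 12330 CPM in cortex NT and 5228 to 6315 CPM in cortex R6/2 (-0.88 ± 0.17, edgeR adjusted p = 0.0037), and 9791 to 12690 against 5532 to 7010 CPM in the striatum (-0.87 ± 0.15, edgeR adjusted p = 0.0051). The groups did not overlap in either region. Ckmt1, the mitochondrial creatine kinase, was at 666 to 883 CPM in cortex NT and 406 to 448 CPM in cortex R6/2 (-0.83 ± 0.18, edgeR adjusted p = 0.014), and fell in the striatum by 0.84 ± 0.17 (edgeR adjusted p = 0.013). In the cortex Ckmt1 was not past the threshold without NT 2, R6/2 2, R6/2 3 or R6/2 4 (edgeR adjusted p up to 0.063), nor in the striatum without R6/2 3 or R6/2 4 (up to 0.076). Of the glycolytic genes, 15 tested in the cortex and 16 in the striatum, Aldoc fell and no other passed. Aldoc, the aldolase of astrocytes, was at 1485 to 2735 CPM in cortex NT and 692 to 1106 CPM in cortex R6/2 (-1.28 ± 0.22, edgeR adjusted p = 0.0018), and at -1.14 ± 0.21 in the striatum (edgeR adjusted p = 0.0069). Summed astrocyte markers were 869 to 1225 CPM in cortex NT and 628 to 752 CPM in cortex R6/2, and their part in the fall of Aldoc was not tested. Without the term for the number of sets the striatal calls of Ckb, Ckmt1 and Aldoc were lost (edgeR adjusted p = 0.20, 0.20 and 0.13), as they were among the 4 samples with 1 set (0.26, 0.41 and 0.41). Over all settings, single samples left out included, the striatal log2 fold change stayed between -0.90 and -0.78 for Ckb, -0.94 and -0.70 for Ckmt1 and -1.53 and -0.73 for Aldoc.

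Isoforms were compared next. TALON classes a read as known when its splice chain is annotated, as an incomplete splice match (ISM) when it holds part of such a chain, and as NIC or NNC when its chain is not annotated and joins known splice sites or holds new ones. Of the reads of the 83 genes 89.3% were known, 8.26% ISM, 0.869% NIC and 1.57% NNC. The known share per sample lay between 85.5% and 91.2% and was 89.8% ± 0.804 in cortex NT and 89.8% ± 0.417 in cortex R6/2 (SD, n = 4). Most subunit genes gave a single isoform. Of the 78 genes whose leading isoform had at least 20 complete reads, the leading isoform held at least 90% of the complete reads (known, NIC and NNC) in 63, with a median of 96.5%, and it was a known isoform in 77.

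No OXPHOS gene changed its isoform usage past the threshold (edgeR diffSpliceDGE, Simes method). In the cortex 0 of 46 tested passed while 0.36% of all 3058 genes did, and in the striatum 0 of 62 while 0.451% of 4437 did. At an unadjusted p under 0.05 there were 1 and 2, beside 170 of all 3058 genes and 299 of all 4437, and the gene-level F test called none. The smallest cortical p was that of Uqcrc1, whose 13-exon isoform ENSMUST00000026743 held 97.2% to 99.2% of complete reads in NT and 96.8% to 98.4% in R6/2 (adjusted p = 0.25). Ndufa11 and Ndufa2 followed, with adjusted p = 1.0. In the striatum Uqcrh, the hinge protein of complex III, gave shares of ENSMUST00000078676 of 97.6%, 98.4%, 96.9% and 95.9% in NT 1 to 4 and 95.3%, 94.9%, 94.1% and 93.6% in R6/2 1 to 4. The groups did not overlap, but the gene did not pass (adjusted p = 0.73). Ndufs7 followed after Atp5g1 (adjusted p = 1.0).

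Atp5g1 was second in the striatum. Its 2 main isoforms have 5 exons each and the same coding part of the last exon, and they differ in the first exon and in the annotated end, with model lengths of 4715 nt (ENSMUST00000090541) and 596 nt (ENSMUST00000107684). These lengths are those of the annotated models and not of the reads. The 4715-nt model held 60.3%, 63.4%, 55.4% and 70.0% of complete reads in striatum NT 1 to 4 and 51.1%, 33.9%, 35.6% and 54.0% in R6/2 1 to 4, so the R6/2 samples all lay lower. The gene did not pass the test (adjusted p = 0.74). In the cortex the shares were 46.1% to 55.8% in NT and 36.1% to 54.5% in R6/2 and overlapped. Atp5j, which encodes coupling factor 6 of the ATP synthase, had its 5-exon isoform ENSMUST00000023608 at 70.5% ± 5.05, 68.1% ± 5.32, 68.5% ± 7.80 and 67.3% ± 3.27 (SD, n = 4) in cortex NT, cortex R6/2, striatum NT and striatum R6/2, from 26 to 188 complete reads per sample (adjusted p = 1.0 in both regions).

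Further isoforms are given as a description, and Ndufs8, Ndufv3 and Atp5c1 were named after their shares were seen. Ndufs8, a core iron-sulfur subunit of complex I, was the gene led by an isoform outside the annotation. An NNC isoform of 7 exons and 1744 nt held 81.9% ± 6.41 of complete reads in cortex NT, 70.9% to 81.4% in cortex R6/2, 84.0% ± 2.96 in striatum NT and 83.7% ± 2.93 in striatum R6/2 (SD, n = 4), with 21 to 222 complete reads per sample. The known 7-exon isoform ENSMUST00000075092 of 963 nt held 12.8% ± 6.36, 17.6% ± 4.12, 10.4% ± 0.758 and 10.8% ± 3.46. The leading form was the same in all 16 samples. Cox4i1 had its 5-exon coding isoform ENSMUST00000034276 at 64.5% to 86.0% over the samples and a 3-exon transcript annotated as retained intron, ENSMUST00000181172, at 12.2% to 32.8%. Atp5c1, the gamma subunit of the ATP synthase, had its 10-exon isoform at 89.3% to 95.4% and the 9-exon isoform, which lacks a 37-nt exon (chr2:10056770-10056806), at 2.00% to 6.18%.

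**Figure D5:**
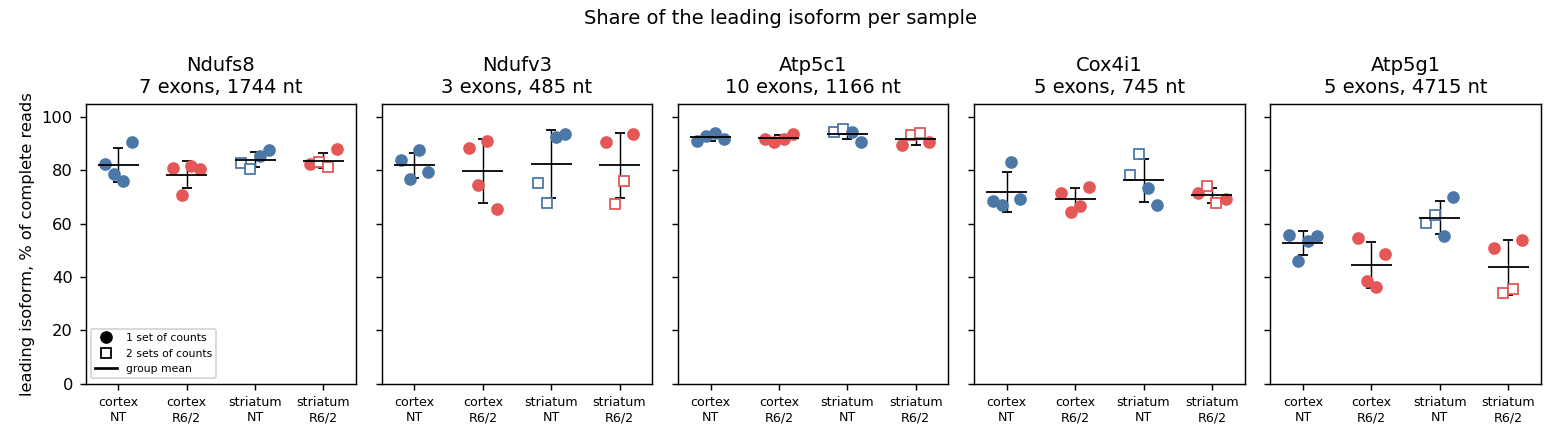
Share of the leading isoform among complete reads (y axis, %) of Ndufs8, Ndufv3, Atp5c1, Cox4i1 and Atp5g1 in each of the 16 samples, by region and genotype, with group mean and SD. Atp5g1 is lower in all 4 striatal R6/2 samples than in all 4 striatal NT samples, and striatal Ndufv3 splits by the number of sets (filled circles at 90.5% to 93.8%, open squares at 67.3% to 76.2%).

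Ndufv3, a small complex I subunit near the NADH-binding site, has a 3-exon form of 485 nt (ENSMUST00000064798) and a 4-exon form of 1537 nt (ENSMUST00000046288). The long form holds an added exon of 1092 bases (mm10 chr17:31527310-31528401, plus strand), which is coding throughout and spans 364 codons with no base left over, so the reading frame is kept. The junctions are shown from the GENCODE M21 transcripts, with 30 bases of each shared exon in lower case and 60 bases from either end of the added exon in capitals.
Ndufv3 3-exon form, exon 2 to exon 3: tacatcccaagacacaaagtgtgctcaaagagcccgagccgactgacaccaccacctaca
Ndufv3 4-exon form, exon 2 to exon 3: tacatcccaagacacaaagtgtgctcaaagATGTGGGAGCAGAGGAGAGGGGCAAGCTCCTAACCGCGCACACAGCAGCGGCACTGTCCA
Ndufv3 4-exon form, exon 3 to exon 4: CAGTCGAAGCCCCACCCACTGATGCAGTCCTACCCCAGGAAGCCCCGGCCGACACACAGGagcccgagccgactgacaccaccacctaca

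The short form of Ndufv3 held 84.0%, 76.9%, 87.5% and 79.3% of complete reads in cortex NT 1 to 4 and 88.4%, 74.5%, 90.8% and 65.5% in cortex R6/2 1 to 4. The R6/2 range contained the NT range. In the striatum the shares were 75.2%, 67.8%, 92.7% and 93.8% in NT 1 to 4 and 90.5%, 67.3%, 76.2% and 93.5% in R6/2 1 to 4. The 4 samples with 2 sets lay at 67.3% to 76.2% and the 4 with 1 set at 90.5% to 93.8%, so the share moved with the number of sets and not with genotype. The libraries with 2 sets, which had the longer mean isoform length, held more of the long form, at 21.9% to 27.6% against 3.91% to 7.73%.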

How the data were processed

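PacBio Iso-seq libraries of cortex and striatum (16 samples, 4 per group) were analysed. The authors treated RNA with Terminator exonuclease and amplified cDNA by PCR, and mention no molecular identifiers. They made consensus reads and mapped them to mm10 with minimap2 2.17-r941 (submitters' processing notes). The reads were corrected with TranscriptClean and assigned to isoforms with TALON. The deposited values are counts of reads per isoform, unfiltered and not normalized, in 20 tables of 815498 isoforms. The pairs of tables of 4 striatal samples were summed (the labels speak of 2 replicates). All 83 genes had a position in GENCODE M21.

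Counts of a gene add up its isoforms of the 4 classes known, ISM, NIC and NNC. Genomic, antisense and intergenic reads were left out. Tests were edgeR 4.0.16 quasi-likelihood fits over all genes (R 4.3.3, limma 3.58.1, TMM, filterByExpr, Benjamini-Hochberg, threshold 0.05), within a region or, for the interaction and NT striatum against cortex, over 16 samples. The number of sets was a term wherever striatal samples entered a main fit. Isoform usage was tested with diffSpliceDGE over known, NIC and NNC isoforms of at least 10 reads. The fits were tested on simulated data. CPM, sums and shares were computed with Python 3.11.15, pandas 2.3.3, numpy 2.4.6 and matplotlib 3.10.9. DESeq2 1.42.0, other normalizations, filters, isoform classes, terms and left-out samples were alternatives. Fits on samples with 1 or 2 sets only were chosen after seeing the data. The labels do not name the animal behind a sample, so p-values measure the spread between these samples, which may be technical in part.

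The members and lists were chosen with earlier results of these data known. Genes were named where they passed the threshold (at most 15 per region, or the 5 of smallest p where fewer than 5 passed), as the 2 most read per complex, as paralogues, for isoform usage as the 3 of smallest p per region and Atp5j, from the lists where called (at most 3 per list and region) with Ppargc1a, and for the regions as the 8 of smallest p. RefSeq promoter windows (GRCm38.p6) were searched with Python. Sample numbers were not used to pair samples in the main fits. The cell type markers read were 8 genes of striatal projection neurons, 6 each of cortical excitatory neurons, oligodendrocytes, astrocytes and microglia, and 5 of choroid plexus. Some single-gene results are not reported here.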

Additional observations from a re-analysis of the deposited data

Results flagged for a closer look

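Among 192 groups of 4 samples, 12 held a sample far from the other samples of its group (Dixon's 95% criterion), and chance flags about 1 in 20 groups. In cortex NT the sample in question was NT 1 in all 6 groups, at 11324 CPM for the sum of complex IV, 4445 for Cox4i1, 2.82 for Cox4i2 (1 read), 776 for Cox6b1, 499 for Cox7a2 and 302 for Ndufa2. In cortex R6/2 it was R6/2 1 for the sums of complex I (12438 CPM) and IV (12016 CPM), for Cox6b1 (877 CPM) and for Ndufb4 (153 CPM), and R6/2 4 for Cox7a1 (2.40 CPM, 1 read). In striatum R6/2 it was R6/2 4 for Ndufa4l2 (17.2 CPM, 7 reads). NT 1 and R6/2 1 have the lowest mean isoform lengths of their groups, 1851 and 1880 nt. The part of isoform length in these values was not tested.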

How the results depend on the processing

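In the cortex 2 OXPHOS genes were called under 8 of 9 other settings and 0 with all 16 samples in 1 fit. Leaving out single samples gave 1 to 6 calls, with 6 without NT 1 and 1 without NT 2, NT 4, R6/2 1 or R6/2 2, and medians of 0.15 to 0.35. In the striatum (median between -0.27 and 0.04), for the interaction (-0.49 to -0.12) and for isoform usage, no setting called a member, including those without a single sample. The ratio of summed members was 1.09 to 1.17 in the cortex and 0.787 to 1.17 in the striatum.

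For NT striatum against cortex, 60 members were called (55 higher, 5 lower). There were 39 with mean isoform length as a term (median 0.66), 2 without the term for the number of sets (0.81), 0 with the first sets without the term (0.86) and 2 with striatal samples of 2 sets only (-0.23), a comparison chosen after seeing the data. Without single samples 54 to 65 were called, with medians of 1.04 to 1.74. With samples of 2 sets only the log2 fold changes turned to 0.048 for Atp5a1, -0.18 for Cox6c, -0.33 for Cox7c, -0.49 for Ndufa4, -0.12 for Ndufa5, -0.28 for Ndufc1, 0.040 for Sdha and -0.29 for Uqcr11. The cause was not tested. The median of all genes, -0.11 in this comparison, was -0.02 with DESeq2 and 0.11 without the filter (59 members higher and 2 lower). Among named genes not called, 10 of 323 cortical and 56 of 479 striatal values changed sign.

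In a check of sample numbers between genotypes, same-numbered striatal samples correlated between -0.57 and 0.62. Between regions, same-numbered samples correlated between -0.23 and 0.22 in NT and between -0.04 and 0.40 in R6/2. Whether the same number marks the same mouse was not settled, and the main fits did not pair samples. With the replicate block the calls were 2 in the cortex, 0 in the striatum, 0 for the interaction, 60 for the regions and 0 for isoform usage in each region, and the striatal call of Ckb was lost (edgeR adjusted p = 0.069). Depth limits the members under 20 complete reads and the untested forms. Intervals of counting error would not cover PCR duplicates.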
